A study of Mus musculus with 6 samples.

Results

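The genes described here encode the acid, degradative end of the cell: the vacuolar proton pump with its accessory proteins, the cathepsins, the Lamp1 and Lamp2 membrane proteins, the transcription factors Tfeb and Tfe3, and the core autophagy machinery. They were taken by symbol (Atp6v0 and Atp6v1 subunits, Atp6ap1 and Atp6ap2, single-letter cathepsins other than Ctss, Lamp1, Lamp2, numbered Atg genes, and Tfeb, Tfe3, Sqstm1, Ulk1, Becn1, Map1lc3a, Map1lc3b, Gabarap and Rb1cc1), without regard to their levels. The choice gave 68 of the 46932 symbols in the table. Of these, 52 reached 1 RPKM in at least 2 of 6 libraries and were tested, and 16 were not tested. RPKM is the number of reads per kilobase of gene and M reads, with M for 1e6, so it can be compared between genes.

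The libraries came from islet cells of adult mice sorted by flow cytometry. All mice carried 3 alleles: mIns1-H2b-mCherry, a nuclear red reporter driven by an insulin promoter, Sst-cre, and a floxed YFP allele that Cre turns on in delta cells and keeps on in their descendants. Beta cells were mCherry positive, delta cells were YFP positive, and the transdifferentiated cells were positive for both, which the submitters describe as beta cells that arose from delta cells, although one clause of their design text says alpha cells. Islets, kept overnight in 5.5 mM glucose with 10% serum before sorting, were pooled over 10 to 12 males or 10 to 12 females. Each population therefore has 1 male and 1 female library. A second passage of the design text speaks of bitransgenic females, while the labels name male and female samples. The 2 beta libraries were also deposited earlier with another series. A pair of values below gives the male pool first. With 2 pools a group, p-values measure the spread between pools of different sex, and in sorted bulk RNA fewer cells of a type and less RNA per cell cannot be told apart.

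Lysosomes break down proteins, lipids and sugars delivered by endocytosis and autophagy, and they need an acid lumen. The vacuolar ATPase provides it: a cytosolic V1 sector hydrolyses ATP and drives proton flow through a V0 sector in the membrane. In beta and delta cells the same pump also acidifies secretory granules, where prohormones mature. In autophagy, a kinase complex (Ulk1, Rb1cc1, Atg13, Atg101) starts a membrane, 2 conjugation reactions attach LC3 and its relative Gabarap to it, and receptors such as Sqstm1 bring in cargo.

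The RPKM denominator, worked out from the step size of low values, was 10.9 to 21.6 M reads per library. It is the plain number of reads only if the authors applied no correction for composition, which is not known. Ins2 made up 41.3% and 34.8% of summed RPKM in the beta libraries, 17.9% and 18.6% in the transdifferentiated and 0.305% and 0.360% in the delta libraries. RPKM are relative within a library, so each comparison was also run after median-of-ratios scaling, which brings the median gene to a common level. The sorted cells carried their labelled markers: the 7 beta markers summed to 221900 to 310207 RPKM in beta, 86442 and 94413 in transdifferentiated and 1441 to 1767 in delta libraries, and the 5 delta markers to 79.7 to 96.6, 13507 to 13590 and 51785 to 60684. Markers of alpha cells (6 genes) summed to 461 to 644 RPKM in beta, 1800 to 2594 in transdifferentiated and 15150 to 16521 in delta libraries, and all 6 were lower in beta than in delta cells. The PP cell genes Ppy and Pyy summed to 558 to 802, 11877 to 12041 and 36498 to 37076 RPKM. In transdifferentiated against beta cells both PP genes and 3 of the 6 alpha markers were higher. All 3 comparisons therefore also differ in alpha and PP transcripts, whose part in the member differences was not tested.

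Promoters were read from RefSeq (GRCm38.p6, 250 bases before to 50 after a transcript start) for 54 members with 63 promoter entries, and 14 members had no entry. They were searched for CACGTG, the E-box core bound by Tfeb and related factors, and for its longer form TCACGTGA, which contains the core. Both motifs read the same on either strand. CACGTG lay in 2349 of 32851 promoters in the RefSeq table (7.15%), in 9.96% of promoters of all genes tested and in 13 of 50 promoters of tested members (26%). TCACGTGA lay in 0.974%, 1.86% and 12% of the same sets. The 13 members with a core motif were Atg14, Atg3, Atg5, Atg7, Atp6v0b, Atp6v0d1, Atp6v0e, Atp6v1a, Ctsa, Ctsd, Ctsf, Ctsl and Lamp1. The 5 stretches of 250 bases that follow end at the base before the start site and are shown because they span the roles (membrane protein, V0 and V1 subunit, cathepsin, conjugation enzyme) and hold from 1 to 4 matches each. Capitals mark the match.
Lamp1, chr8:13158911-13159160, plus strand: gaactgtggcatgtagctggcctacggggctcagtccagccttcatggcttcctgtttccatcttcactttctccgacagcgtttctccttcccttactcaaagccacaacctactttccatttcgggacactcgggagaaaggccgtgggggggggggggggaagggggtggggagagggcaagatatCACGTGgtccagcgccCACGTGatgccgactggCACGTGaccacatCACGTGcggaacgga
Atp6v0b, chr4:117887330-117887579, minus strand: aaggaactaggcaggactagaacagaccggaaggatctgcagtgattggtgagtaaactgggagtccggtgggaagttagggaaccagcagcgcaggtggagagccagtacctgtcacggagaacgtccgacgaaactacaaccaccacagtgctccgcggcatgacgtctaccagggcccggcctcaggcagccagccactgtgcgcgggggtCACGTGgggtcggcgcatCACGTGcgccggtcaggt
Atp6v1a, chr16:44139260-44139509, minus strand: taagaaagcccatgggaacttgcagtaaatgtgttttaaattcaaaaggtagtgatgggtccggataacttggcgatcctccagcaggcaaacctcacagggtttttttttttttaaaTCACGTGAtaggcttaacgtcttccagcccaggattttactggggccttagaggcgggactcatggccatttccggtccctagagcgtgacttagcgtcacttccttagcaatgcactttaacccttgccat
Ctsd, chr7:142387828-142388077, minus strand: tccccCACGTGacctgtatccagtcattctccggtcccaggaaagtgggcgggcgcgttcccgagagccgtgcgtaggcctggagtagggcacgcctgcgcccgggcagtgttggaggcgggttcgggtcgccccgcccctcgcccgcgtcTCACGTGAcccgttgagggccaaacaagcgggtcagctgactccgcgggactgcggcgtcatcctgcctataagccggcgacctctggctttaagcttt
Atg3, chr16:45158579-45158828, plus strand: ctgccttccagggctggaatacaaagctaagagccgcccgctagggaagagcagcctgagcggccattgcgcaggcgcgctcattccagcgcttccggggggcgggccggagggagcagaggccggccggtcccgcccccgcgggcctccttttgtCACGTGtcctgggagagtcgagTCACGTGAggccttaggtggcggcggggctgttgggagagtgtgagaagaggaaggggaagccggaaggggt
In Lamp1 the 4 matches began 61, 45, 28 and 15 bases before the start, and none was the longer form. In Atp6v0b the 2 matches began 36 and 18 bases before it. Atp6v1a had a single match, of the longer form, with its core beginning 131 bases upstream. In Ctsd and in Atg3, 1 of the 2 matches was the longer form, with its core beginning 98 and 71 bases upstream. A match describes these letters only and says nothing of whether a factor was bound.

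Between beta and delta cells, 26 of the 52 tested members were called at an adjusted p under 0.05 (50%, against 57.9% of all 13022 genes tested). In beta cells 12 were higher (23.1%, against 11.7% of genes) and 14 lower (26.9%, against 46.3%). The median member difference was 0.06 on the log2(RPKM + 1) scale, against −0.36 over all genes. After scaling, the median of all genes was −0.02 and that of the members 0.46, with 32 members higher (61.5%, against 27.8% of genes) and 4 lower (7.69%, against 29.7%). All 12 members called higher as deposited stayed higher after scaling, while only 4 of the 14 called lower, Ctsh, Ctso, Rb1cc1 and Atg12, stayed lower. In transdifferentiated against beta cells 20 members were called (38.5%, against 51% of genes): 8 were higher (15.4%, against 42.5% of genes) and 12 lower (23.1%, against 8.46%), with a median of −0.02 against 0.32 over all genes. Scaling moved these to 2 higher (3.85%, against 27.8%) and 30 lower (57.7%, against 26.1%), with medians of −0.40 and −0.0017. All 12 lower calls stayed, and of the higher calls Rb1cc1 and Ctso stayed. These 2 comparisons share the beta libraries, so their opposite directions are not independent.

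**Figure D1:**
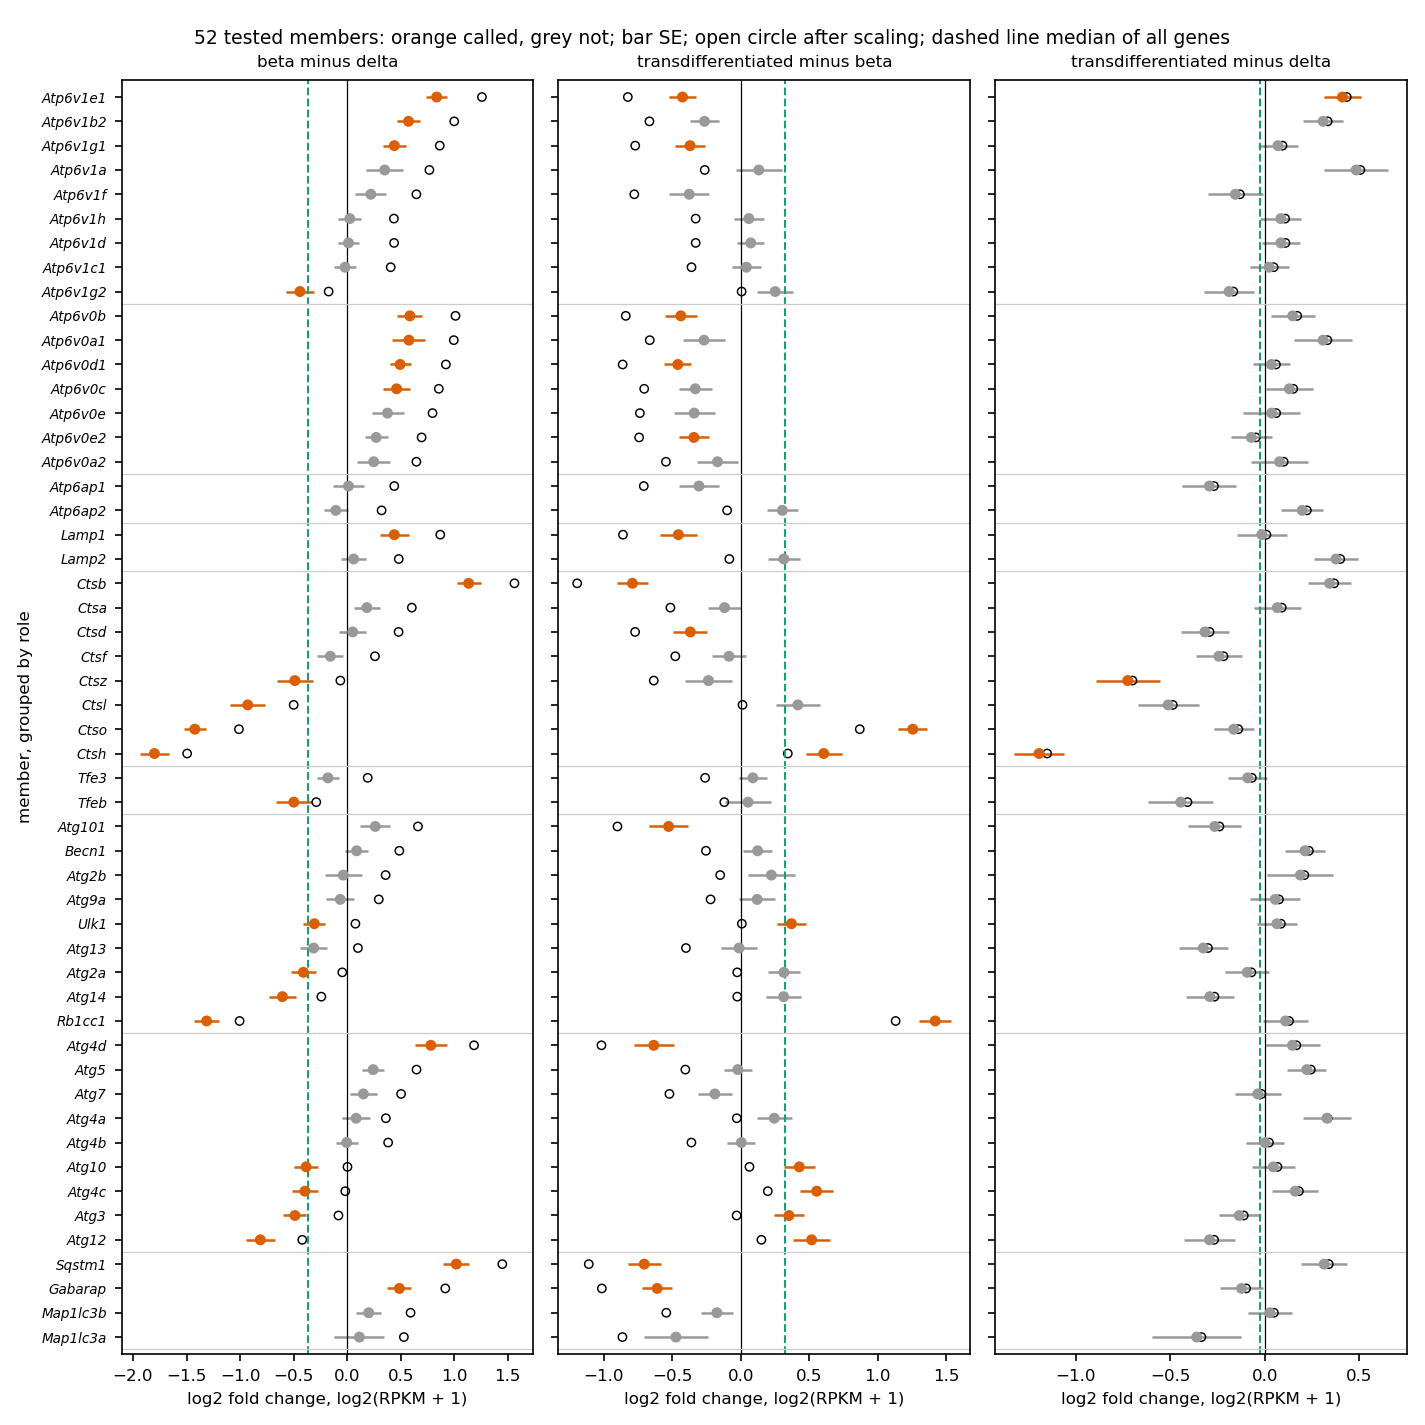
Log2 fold change on the log2(RPKM + 1) scale for each of the 52 tested members (rows, grouped by role) in the 3 comparisons; filled points with a bar of 1 SE are the values as deposited (orange called, grey not), open circles the values after scaling, and the dashed line is the median of all genes tested. In the beta minus delta panel the open circles lie to the right of the filled points, and the fewest orange points, 3, are in the transdifferentiated minus delta panel.

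The proton pump was represented by 22 subunit genes, of which 16 were tested. Their summed level was 1076 and 1070.4 RPKM in beta, 892 and 898 in transdifferentiated and 808 and 845 in delta libraries. Both beta libraries lay above, and the transdifferentiated libraries lay between beta and delta. Of the 16, 7 were higher and 1 lower in beta than in delta cells (43.8% higher, against 11.7% of all genes), with a median difference of 0.36. After scaling 15 were higher and none lower (93.8% higher, against 27.8% of all genes), with a median of 0.78, against −0.02 over all genes. In transdifferentiated against beta cells, 5 were lower and none higher as deposited (31.2% lower, against 8.46% of genes). With scaling, 13 were lower and none higher (81.2% lower, against 26.1% of genes). By limma, 0 of the 16 were higher at an unadjusted p under 0.05 either way.

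Among V1 subunits, Atp6v1b2, the B subunit of the catalytic ring, had the highest mean level, 136 and 149.5 RPKM in beta, 123 and 114 in transdifferentiated and 95.7 and 95.3 in delta libraries. The 3 populations did not overlap, and beta exceeded delta by a log2 difference of 0.57 (SE 0.11, adjusted p = 0.00417). Atp6v1d, part of the central rotor, was 101 and 95.9 RPKM in beta, 106 and 101 in transdifferentiated and 96.03 and 98.9 in delta libraries, with a beta minus delta difference of 0.01 (SE 0.10) as deposited. After scaling that difference was 0.44 and called (adjusted p = 0.0181), and transdifferentiated minus beta was −0.33 (0.0512). Atp6v1c1, the C subunit that links ring and stator, was 81.9 and 89.6 RPKM in beta, 89.5 and 87.0 in transdifferentiated and 85.9 and 87.7 in delta libraries, with a difference of −0.02 (SE 0.10) as deposited that turned to 0.41 after scaling. Atp6v1e1, a peripheral stalk subunit, showed the largest beta minus delta difference of the pump, 70.0 and 66.3 RPKM in beta, 51.3 and 49.7 in transdifferentiated and 37.7 and 37.8 in delta libraries. The 3 populations formed 3 separate levels: beta exceeded delta by a log2 difference of 0.84 (SE 0.10, adjusted p = 0.00063), and transdifferentiated cells were below beta by a log2 difference of −0.43 (SE 0.10, adjusted p = 0.012) and above delta by a log2 difference of 0.41 (SE 0.10, adjusted p = 0.0419). After scaling the last difference had an adjusted p of 0.0555. Atp6v1g1, another stalk subunit, was 76.7 and 74.2 RPKM in beta, 55.7 and 60.6 in transdifferentiated and 53.2 and 57.5 in delta libraries, higher in beta than in delta cells by a log2 difference of 0.44 (SE 0.11, adjusted p = 0.0116) and lower in transdifferentiated than in beta cells by a log2 difference of −0.37 (SE 0.11, adjusted p = 0.0256).

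The remaining tested V1 genes were Atp6v1a, the catalytic A subunit, Atp6v1f, Atp6v1h and Atp6v1g2. Atp6v1a was 30.6 and 43.9 RPKM in beta, 40.6 and 40.0 in transdifferentiated and 27.9 and 29.2 in delta libraries: the male beta library lay near the delta level and the female one above every other library, and no comparison was called as deposited. Atp6v1f and Atp6v1h ranged over 61.9 to 91.9 and 20.7 to 23.5 RPKM, with no call as deposited. After scaling Atp6v1a, Atp6v1f and Atp6v1h were each called higher in beta than in delta cells. They were among 8 of the 9 tested V1 genes higher there (88.9%, against 27.8% of all genes). Atp6v1g2, the G subunit copy known from neurons, was low at 1.37 and 1.25 RPKM in beta, 1.81 and 1.68 in transdifferentiated and 2.37 and 1.91 in delta libraries. It rested on 46 to 101 reads a library and made up 1.7% to 4.3% of G subunit RPKM. It was lower in beta than in delta cells by a log2 difference of −0.44 (SE 0.13, adjusted p = 0.0273), a call lost after scaling. Of the V1 subunits with tissue-restricted copies, Atp6v1b2, Atp6v1c1 and Atp6v1e1 each held at least 99.7% of the RPKM of their pair. Atp6v1b1, the B copy known from kidney, had 1 read in 1 delta library, Atp6v1c2 was at 0.03 to 0.27 RPKM, and Atp6v1e2 and Atp6v1g3 were at 0 in all libraries, where 3 reads of a gene of 1 kilobase would give 0.139 to 0.275 RPKM. Leaving out single libraries kept the beta minus delta calls of Atp6v1e1 and Atp6v1b2 in all 6 fits. The call of Atp6v1g1 was lost without delta replicate 1 or 2 (adjusted p = 0.111 and 0.0526), and that of Atp6v1g2 without beta replicate 1 or 2 or delta replicate 1 (0.0612, 0.0849 and 0.168). The transdifferentiated minus beta calls of Atp6v1e1 and Atp6v1g1 were lost without transdifferentiated replicate 1 (0.0544 and 0.141) or 2 (0.0651 and 0.0584), and that of Atp6v1g1 without delta replicate 1 or 2 (0.0654 and 0.0662). The transdifferentiated minus delta call of Atp6v1e1 was lost without either transdifferentiated or either delta library (0.159 to 0.293).

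All 7 tested V0 genes had a higher mean in beta than in delta cells. As deposited 4 were called higher, Atp6v0b, Atp6v0a1, Atp6v0d1 and Atp6v0c (57.1%, against 11.7% of all genes), and after scaling 7 (100%, against 27.8%). Atp6v0d1, which couples the rotor to the membrane ring, had the highest level, 154 and 147 RPKM in beta, 107 and 111 in transdifferentiated and 107 and 107 in delta libraries. Beta libraries stood above the other 4, which ran from 106.5 to 111. Beta exceeded delta by a log2 difference of 0.49 (SE 0.10, adjusted p = 0.00531), and transdifferentiated cells were below beta by a log2 difference of −0.46 (SE 0.10, adjusted p = 0.00867). Atp6v0b, a proteolipid of the ring, was 127 and 108 RPKM in beta, 85.0 and 87.8 in transdifferentiated and 76.9 and 79.0 in delta libraries, with transdifferentiated cells between the other 2 and a beta minus delta difference of 0.59 (SE 0.12, adjusted p = 0.00515). Atp6v0c, the main ring proteolipid, was read at only 11.6 and 13.2 RPKM in beta, 8.96 and 10.4 in transdifferentiated and 8.81 and 8.63 in delta libraries. Its level and its call are uncertain, since 2 processed copies, Atp6v0c-ps1 and Atp6v0c-ps2, may share its reads. Their part was not tested. Atp6v0e2 was 72.3 and 76.8 RPKM in beta, 57.7 and 59.5 in transdifferentiated and 58.2 and 65.2 in delta libraries, lower in transdifferentiated than in beta cells by a log2 difference of −0.34 (SE 0.11, adjusted p = 0.0361).

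**Figure D2:**
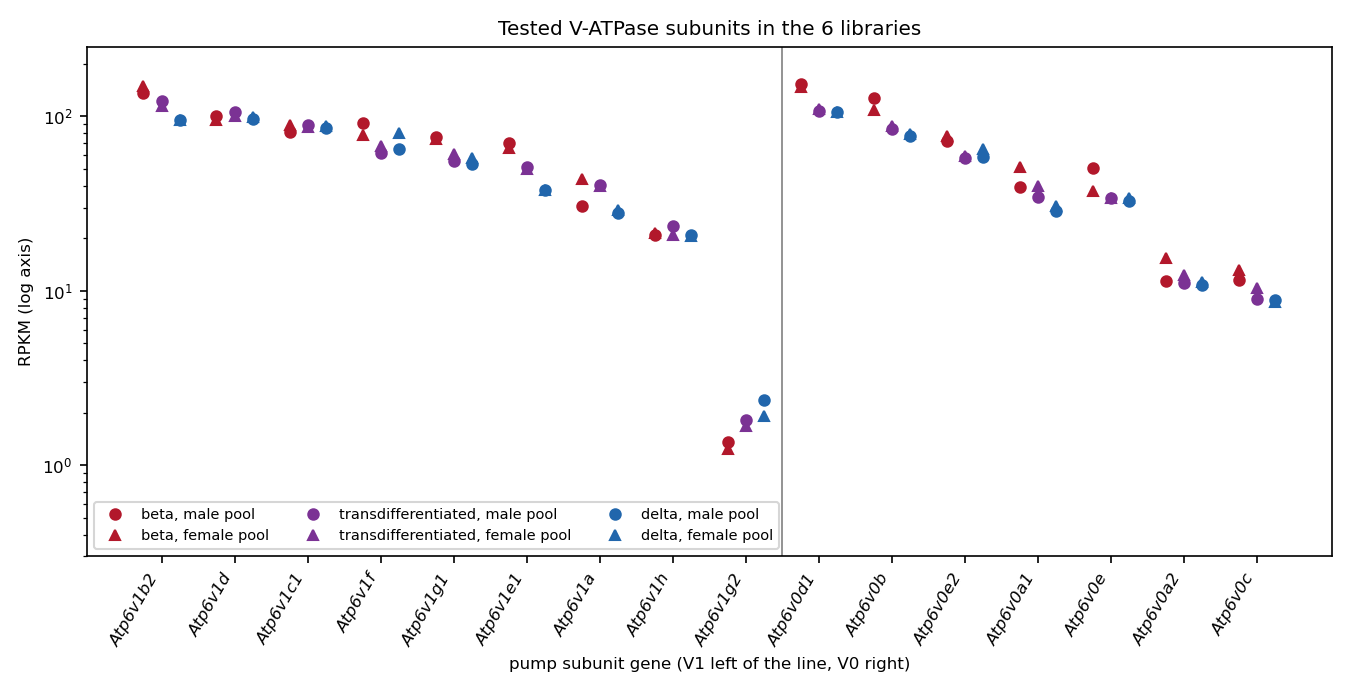
RPKM (log axis) of the 16 tested pump subunits in each library, with V1 genes left and V0 genes right of the line; circles are male and triangles female pools, red beta, purple transdifferentiated and blue delta. The 2 beta points lie above the 2 delta points for each V0 gene, and the share of all genes with such a gap was not counted. As deposited all 6 points lie between 95.9 and 106 RPKM for Atp6v1d and between 81.9 and 89.6 for Atp6v1c1.

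The a subunit, which is thought to set where the pump goes, was mainly Atp6v0a1, 39.1 and 51.4 RPKM in beta, 34.5 and 39.8 in transdifferentiated and 28.8 and 30.7 in delta libraries, higher in beta than in delta cells by a log2 difference of 0.58 (SE 0.15, adjusted p = 0.0173). Atp6v0a2, the Golgi form, was 11.4 and 15.4 RPKM in beta, 11.1 and 12.3 in transdifferentiated and 10.8 and 11.2 in delta libraries and was not called as deposited. After scaling it was called higher in beta than in delta cells. With Tcirg1, the a3 copy known from osteoclasts and lysosomes, counted in, Atp6v0a1 held 63.3% to 74.6% of a subunit RPKM and Atp6v0a2 21.7% to 23.8%. Tcirg1 took 4.0% and 3.1% in beta, 6.8% and 6.4% in transdifferentiated and 12.9% and 11.1% in delta libraries. In level Tcirg1 ran opposite to the tested V0 genes, whose means were all higher in beta than in delta cells. Its level was 2.08 and 2.12, 3.36 and 3.59, and 5.85 and 5.27 RPKM, and it was lower in beta than in delta cells both as deposited (−1.08, SE 0.11, adjusted p = 0.00042) and after scaling. Atp6v0a4, the kidney copy, had 0 to 4 reads and Atp6v0d2, the osteoclast d copy, 0 or 3 reads a library. The e subunit was shared by Atp6v0e (50.3 and 37.5 RPKM in beta, 34.1 and 34.1 in transdifferentiated and 32.6 and 33.9 in delta libraries) and Atp6v0e2, with Atp6v0e at 32.8% to 41.0%. Without delta replicate 1 the beta minus delta calls of Atp6v0d1, Atp6v0a1 and Atp6v0c were lost (adjusted p = 0.052, 0.0985 and 0.0877), and without delta replicate 2 those of Atp6v0a1 and Atp6v0c (0.0603 and 0.096), while Atp6v0b kept its call in each of the 6 fits. Against beta cells, Atp6v0d1 lost its call without transdifferentiated replicate 1 (0.0589), and Atp6v0b without transdifferentiated replicate 1 or 2 or delta replicate 2 (0.0958, 0.0666 and 0.0502). Atp6v0e2 lost it in every fit except the one without beta replicate 1 (0.06 to 0.15).

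**Figure D3:**
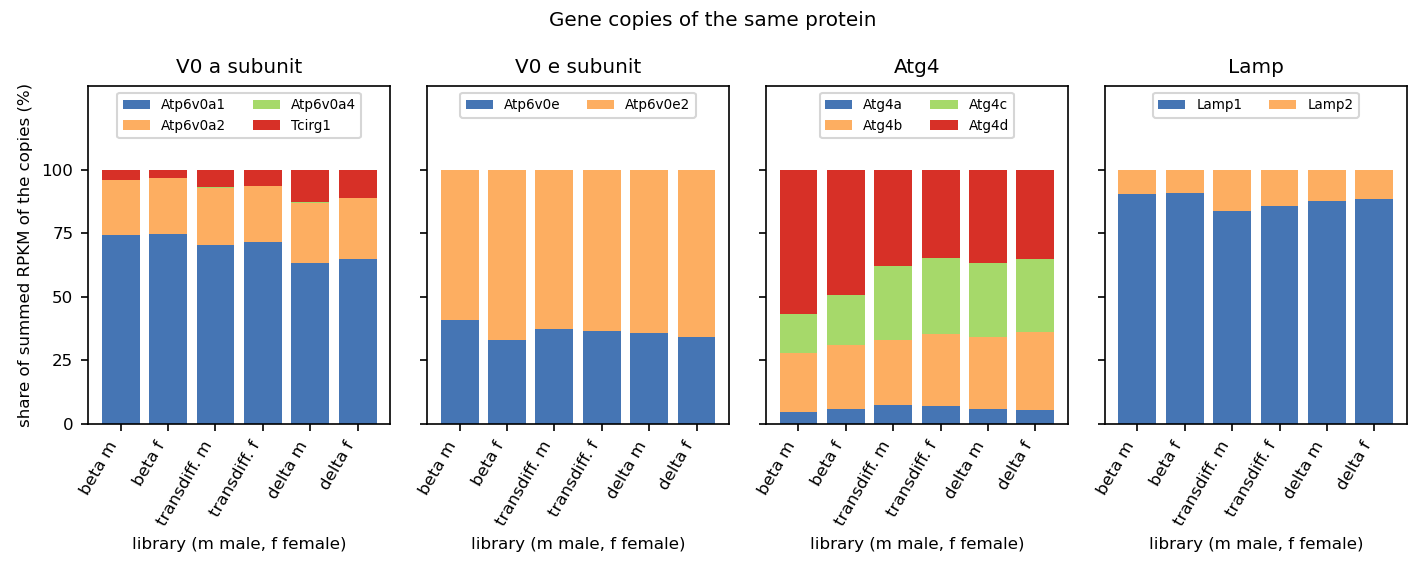
Share of the summed RPKM of gene copies (percent, bars stacked to 100) in each library for the V0 a subunit with Tcirg1, the V0 e subunit, the Atg4 proteases and the Lamp proteins. Tcirg1 widens from 3.1% in a beta library to 12.9% in a delta library, and Atg4d shrinks from 56.8% to 34.9%.

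Neither accessory protein was called in any comparison as deposited, and both were higher in beta than in delta cells after scaling. Atp6ap2, the prorenin receptor, was 147 and 166 RPKM in beta, 199.8 and 186 in transdifferentiated and 169.9 and 166 in delta libraries. As deposited both transdifferentiated libraries exceeded every other. Transdifferentiated minus beta turned from 0.30 (adjusted p = 0.0587) to −0.10 with scaling, and beta minus delta from −0.11 to 0.32. Atp6ap1, which assists assembly and trafficking of the pump in secretory cells, was 144 and 184 RPKM in beta, 128 and 135 in transdifferentiated and 153 and 170.5 in delta libraries, lowest in the transdifferentiated libraries, and after scaling its transdifferentiated minus beta difference of −0.71 was called (adjusted p = 0.00548). Lamp1, the major glycoprotein of the lysosomal membrane, was 402 and 475 RPKM in beta, 304 and 334 in transdifferentiated and 302 and 343 in delta libraries. Beta exceeded delta by a log2 difference of 0.44 (SE 0.13, adjusted p = 0.0269), and transdifferentiated cells were below beta by a log2 difference of −0.46 (SE 0.13, adjusted p = 0.0269). Without the female beta library, beta replicate 2, these had adjusted p of 0.0748 and 0.0701. The first was also lost without delta replicate 1 or 2 (0.182 and 0.0606), the second without transdifferentiated replicate 1 or 2 or delta replicate 2 (0.143, 0.0667 and 0.0512). Lamp2, needed for fusion with autophagosomes, was 42.1 and 48.7 RPKM in beta, 58.5 and 54.6 in transdifferentiated and 42.7 and 44.0 in delta libraries, highest in both transdifferentiated libraries as deposited but not after scaling. It was not called as deposited. After scaling it was lower in delta than in transdifferentiated cells (difference 0.40, adjusted p = 0.047) and than in beta cells (0.48, adjusted p = 0.0065). Lamp2 held 16.1% and 14.1% of Lamp RPKM in transdifferentiated libraries, against 9.5% and 9.3% in beta and 12.4% and 11.4% in delta libraries.

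Cathepsins, the lysosomal proteases, had a summed level of 855 and 799.9 RPKM in beta, 808 and 726 in transdifferentiated and 953 and 958 in delta libraries, a sum that hid opposite differences between its largest members. Ctsl, a cysteine endopeptidase, was 262 and 206 RPKM in beta, 346 and 278 in transdifferentiated and 448 and 437 in delta libraries. Delta libraries were highest without overlap, and beta was below delta by a log2 difference of −0.93 (SE 0.16, adjusted p = 0.003). It was called in all 6 fits without 1 library, while after scaling it was −0.50 (adjusted p = 0.062). Ctsb, the other abundant cysteine protease, ran the other way, 246 and 243 RPKM in beta, 151 and 131 in transdifferentiated and 113 and 108 in delta libraries. Beta exceeded delta 2.21-fold in mean RPKM (a log2 difference of 1.13, SE 0.11, adjusted p = 0.0003), and transdifferentiated cells were below beta by a log2 difference of −0.79 (SE 0.11, adjusted p = 0.00185) with both libraries between the other groups. The ratio of Ctsb to Ctsl, which scaling cannot change, was 0.939 and 1.18 in beta, 0.435 and 0.472 in transdifferentiated and 0.253 and 0.248 in delta libraries. Ctsd, the aspartic protease, was 193 and 202 RPKM in beta, 149 and 157 in transdifferentiated and 173 and 209.6 in delta libraries, with transdifferentiated libraries lowest. Its call against beta (−0.37, SE 0.13, adjusted p = 0.0456) was lost in each of the 6 fits that left a library out (0.0644 to 0.187).

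As deposited, the largest tested cathepsin difference was in less abundant members, Ctso against beta cells and Ctsh in both comparisons with delta cells. After scaling Ctsb was largest in beta minus delta (1.56) and in transdifferentiated minus beta (−1.20). Ctso was 15.8 and 15.4 RPKM in beta, 40.3 and 36.9 in transdifferentiated and 42.0 and 44.7 in delta libraries. Transdifferentiated cells were near the delta level, 2.48-fold above beta in mean RPKM (a log2 difference of 1.26, SE 0.11, adjusted p = 0.00034), and beta was below delta by a log2 difference of −1.42 (SE 0.11, adjusted p = 0.0001). Ctsh, an aminopeptidase, was 1.35 and 1.53 RPKM in beta, 2.68 and 2.75 in transdifferentiated and 6.77 and 8.28 in delta libraries, on 131 and 141 reads in the beta and 517 and 584 in the delta libraries. Delta exceeded beta 5.22-fold, and the transdifferentiated libraries lay between, higher than beta by a log2 difference of 0.61 (SE 0.13, adjusted p = 0.00934) and lower than delta by a log2 difference of −1.19 (SE 0.13, adjusted p = 0.00291). By GENCODE M21 on GRCm38, Ctsb lies on chromosome 14 (63122462 to 63145923), Ctso on chromosome 3 (81932601 to 81956725) and Ctsh on chromosome 9 (90054152 to 90076089), all on the plus strand. The calls of Ctso and Ctsb, and the calls of Ctsh against delta cells, held in all 6 fits without 1 library and after scaling. The transdifferentiated minus beta call of Ctsh held in the 6 fits but not after scaling. Ctsz, a carboxypeptidase, was 69.1 and 61.5 RPKM in beta, 59.9 and 50.9 in transdifferentiated and 107 and 79.2 in delta libraries, with beta below delta by a log2 difference of −0.49 (SE 0.17, adjusted p = 0.0434) and transdifferentiated below delta by a log2 difference of −0.72 (SE 0.17, adjusted p = 0.0377). Neither held after scaling (the second had an adjusted p of 0.051). Without delta replicate 1, the higher of the 2 delta libraries, they had adjusted p of 0.279 and 0.195. The first was also lost without beta replicate 1 or 2 or either transdifferentiated library (0.0569 to 0.14), the second without either transdifferentiated library or delta replicate 2 (0.0505 to 0.19). Ctsa and Ctsf ranged over 32.2 to 40.4 and 24.7 to 33.6 RPKM and were not called as deposited. With pool as a block, Ctsl of transdifferentiated cells was called higher than beta (adjusted p = 0.025, without the block 0.0675) and lower than delta (0.035, without it 0.0953). After scaling, Ctsl was 332 and 235 in beta, 311 and 256 in transdifferentiated and 396 and 396 in delta libraries. Beta and transdifferentiated libraries then overlapped.

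Of the 17 cathepsins, 9 were not tested: Ctsg, Ctsj, Ctsm, Ctsq and Ctsr were at 0 in all libraries, Ctse had 0 to 8 reads and Ctsw reached at most 0.38 RPKM. Ctsc, which activates granule proteases of immune cells, was 0.70 and 0.90 RPKM in beta, 0.12 and 0.079 in transdifferentiated and 0.051 and 0.022 in delta libraries, and Ctsk, the osteoclast collagenase, 1.23 and 0.74 RPKM in beta, 0.79 and 0.55 in transdifferentiated and 0.16 and 0.30 in delta libraries, both highest in a beta library. Macrophages are rich in several cathepsins, and their markers moved with the beta libraries: of 11 tested markers 9 were higher and 1 lower in beta than in delta cells, and 10 were lower in transdifferentiated than in beta cells. The list of 13 markers, taken without C1qa, summed to 55.9 to 66.7 RPKM in beta, 3.32 to 7.75 in transdifferentiated and 3.11 to 3.16 in delta libraries. With C1qa the sums were 90.8 to 107, 32.7 to 40.3 and 62.4 to 80.0, and 0, 1 and 3 of the 13 were at 0 in both libraries of a group. The part of these transcripts in the Ctsb, Ctsc and Ctsk levels was not tested. Acinar markers summed to 10039 RPKM in the male and 381 in the female beta library, 2645 and 181 in the transdifferentiated, and 889 and 659 in the delta libraries.

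**Figure D4:**
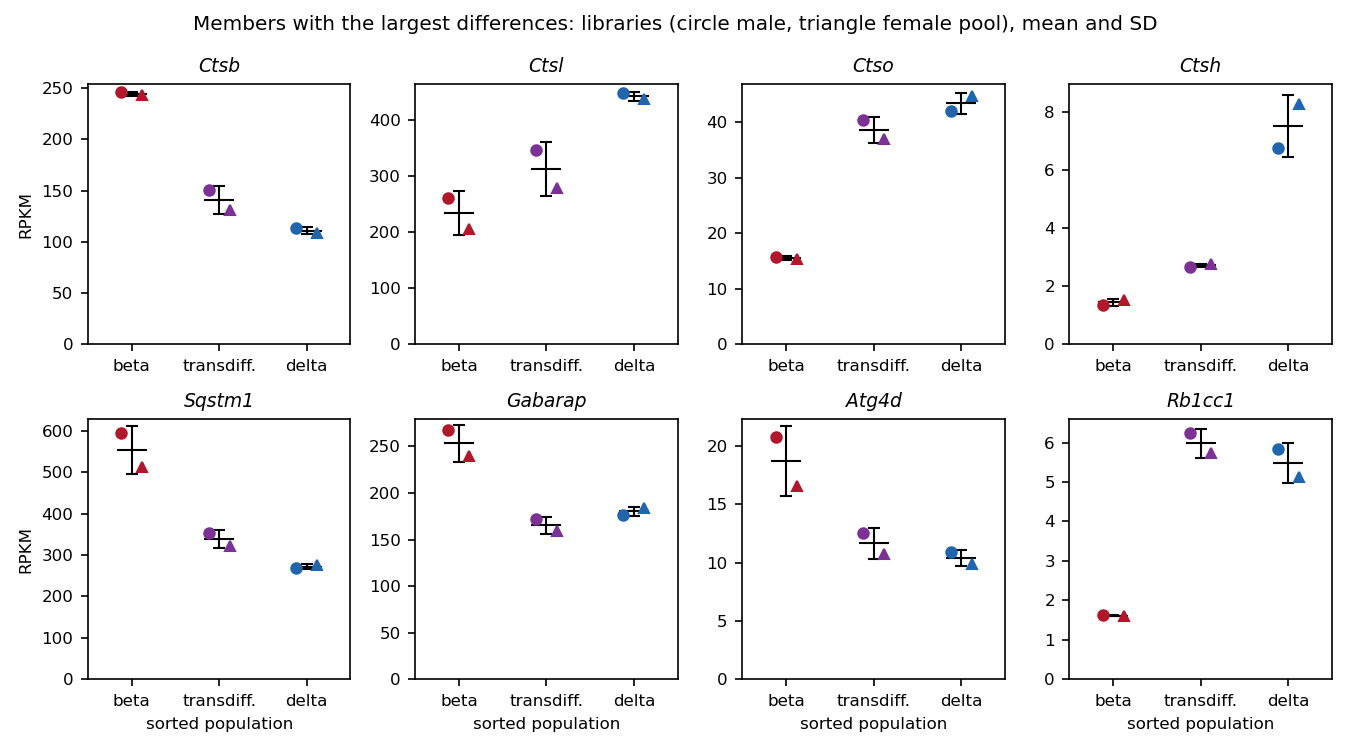
RPKM of 8 members in the 3 sorted populations (circles male pool, triangles female pool, horizontal mark and bar the mean and SD of 2 libraries). Ctsb, Sqstm1, Gabarap and Atg4d are highest in beta cells, and Ctsl, Ctso, Ctsh and Rb1cc1 are lowest there.

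Tfeb and Tfe3 switch on lysosomal genes when mTORC1 is inactive. Tfe3 was the main copy, 5.60 and 5.88 RPKM in beta, 6.25 and 6.07 in transdifferentiated and 6.71 and 6.54 in delta libraries, at 82.0% to 91.9% of the RPKM of both, and was not called in any comparison as deposited. Tfeb was low, 0.65 and 0.79 RPKM in beta, 0.55 and 1.05 in transdifferentiated and 1.41 and 1.44 in delta libraries, on 39 to 136 reads a library. It was lower in beta than in delta cells by a log2 difference of −0.50 (SE 0.17, adjusted p = 0.0417). That call was lost after scaling, and without beta replicate 1 or 2 or delta replicate 1 or 2 (adjusted p = 0.0885 to 0.168). The 2 transdifferentiated libraries spanned the range from below both beta libraries to above them.

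In the kinase complex that starts autophagy, Rb1cc1, the large scaffold also called FIP200, showed the largest deposited log2 difference of the tested members between transdifferentiated and beta cells, 1.62 and 1.60 RPKM in beta, 6.25 and 5.73 in transdifferentiated and 5.84 and 5.12 in delta libraries. Transdifferentiated and delta libraries overlapped and beta was far below them: transdifferentiated cells exceeded beta 3.73-fold in mean RPKM (a log2 difference of 1.42, SE 0.12, adjusted p = 0.00034), and beta was below delta by a log2 difference of −1.31 (SE 0.12, adjusted p = 0.00022). Both calls held in each of the 6 fits without 1 library and after scaling, where the first was 1.13 and smaller in size than that of Ctsb (−1.20). Rb1cc1 lies on chromosome 1, 6206197 to 6276648 (plus strand), and shares bases with the antisense gene 4732440D04Rik. The strand setting is unknown here. Its kinase partner Ulk1 differed less, 7.13 and 7.24 RPKM in beta, 9.68 and 9.49 in transdifferentiated and 9.43 and 8.83 in delta libraries, higher in transdifferentiated than in beta cells by a log2 difference of 0.37 (SE 0.10, adjusted p = 0.0232) and lower in beta than in delta by a log2 difference of −0.31 (SE 0.10, adjusted p = 0.0399). Both calls were lost after scaling, the second also with pool as a block (adjusted p = 0.0506). Without 1 library, the first was lost when either transdifferentiated or either delta library was left out (0.0654 to 0.11), the second in each fit except the one without beta replicate 2 (0.0539 to 0.248). Atg13 was 19.4 and 24.1 RPKM in beta, 21.5 and 21.4 in transdifferentiated and 26.3 and 28.0 in delta libraries, not called as deposited. Atg101, which stabilises Atg13, was 14.8 and 11.4 RPKM in beta, 8.89 and 8.50 in transdifferentiated and 10.9 and 10.4 in delta libraries: transdifferentiated cells were lowest, below beta by a log2 difference of −0.53 (SE 0.14, adjusted p = 0.0195), also after scaling. That call was lost without transdifferentiated replicate 1 or 2 (0.0733 and 0.0868).

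Among the genes that act next, Becn1, of the lipid kinase complex, was 11.8 and 13.2 RPKM in beta, 13.7 and 13.8 in transdifferentiated and 11.4 and 12.0 in delta libraries and was not called as deposited. Its partner Atg14 was 4.44 and 4.36 RPKM in beta, 6.13 and 5.32 in transdifferentiated and 6.63 and 7.84 in delta libraries, lower in beta than in delta cells by a log2 difference of −0.60 (SE 0.13, adjusted p = 0.00667), a call lost after scaling and without delta replicate 2 (adjusted p = 0.062). The lipid transfer proteins Atg2a (4.35 and 5.01 RPKM in beta, 5.85 and 6.26 in transdifferentiated and 6.36 and 6.69 in delta libraries) and Atg2b (9.27 and 12.8 RPKM in beta, 14.1 and 11.8 in transdifferentiated and 12.0 and 10.4 in delta libraries) split their RPKM with Atg2b at 61.0% to 71.8%. Atg2a was lower in beta than in delta cells (−0.41, SE 0.12, adjusted p = 0.0216), lost after scaling, without the male beta library (0.0522) and without either delta library (0.0962 and 0.133). The scramblase Atg9a was 4.49 and 5.26 RPKM in beta, 5.44 and 5.30 in transdifferentiated and 5.66 and 4.65 in delta libraries, with no call as deposited. Atg9b was not tested: it was 0.98 and 0.22 RPKM in beta, 0.42 and 0 in transdifferentiated and 0.075 and 0.032 in delta libraries, on 83 reads in the male beta library and none in the female transdifferentiated library.

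Conjugation genes were a mixed group. Of 9 tested, 4 were higher and 1 lower in transdifferentiated than in beta cells (44.4% higher, near the 42.5% of all genes). After scaling none was higher (against 27.8% of all genes) and 4 were lower (44.4%, against 26.1%). Atg12, the ubiquitin-like protein joined to Atg5, was 7.20 and 9.14 RPKM in beta, 12.6 and 11.6 in transdifferentiated and 15.6 and 14.4 in delta libraries. It was lower in beta than in delta cells by a log2 difference of −0.81 (SE 0.14, adjusted p = 0.00264), a call that held after scaling and in all 6 fits without 1 library, and higher in transdifferentiated than in beta cells by a log2 difference of 0.52 (SE 0.14, adjusted p = 0.0187), a call lost after scaling and without transdifferentiated replicate 1 or 2 (adjusted p = 0.103 and 0.053). Atg5 itself was 17.0 and 16.1 RPKM in beta, 16.3 and 16.2 in transdifferentiated and 14.2 and 13.4 in delta libraries, with no call as deposited. Atg3, the enzyme that passes LC3 to lipid, was 14.2 and 14.1 RPKM in beta, 19.3 and 17.4 in transdifferentiated and 20.9 and 19.6 in delta libraries: beta was below delta by a log2 difference of −0.49 (SE 0.11, adjusted p = 0.00816) and transdifferentiated above beta by a log2 difference of 0.35 (SE 0.11, adjusted p = 0.032), and both calls were lost after scaling, the second with its sign turned (−0.03). The first was lost without delta replicate 1 (0.0808), the second without either transdifferentiated or either delta library (0.0594 to 0.174). Atg10, which joins Atg12 to Atg5, ran from 6.81 to 10.5 RPKM and was lowest in beta libraries. Its calls (transdifferentiated minus beta 0.43, beta minus delta −0.38) were lost after scaling. The first was also lost without either transdifferentiated or either delta library (0.0539 to 0.104), the second without either delta library (0.131 and 0.134). Atg7, the E1-like enzyme, ranged from 3.72 to 4.86 RPKM, not called as deposited.

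The Atg4 proteases trim LC3 and release it again, and Atg4d was the most abundant copy in every library. Atg4d was 20.8 and 16.6 RPKM in beta, 12.6 and 10.7 in transdifferentiated and 10.9 and 9.91 in delta libraries. Beta exceeded delta by a log2 difference of 0.78 (SE 0.15, adjusted p = 0.00415), and transdifferentiated cells were below beta by a log2 difference of −0.64 (SE 0.15, adjusted p = 0.0115). Atg4c ran the other way, 5.60 and 6.68 RPKM in beta, 9.76 and 9.17 in transdifferentiated and 8.57 and 8.17 in delta libraries, with transdifferentiated cells above beta by a log2 difference of 0.55 (SE 0.12, adjusted p = 0.00921) and beta below delta by a log2 difference of −0.39 (SE 0.12, adjusted p = 0.0279). Neither held after scaling, while both Atg4d calls did. Atg4b, the copy with the widest activity, was among the most even members, 8.51 and 8.52 RPKM in beta, 8.46 and 8.63 in transdifferentiated and 8.39 and 8.71 in delta libraries, with differences of at most 0.0045 as deposited and of −0.36 (transdifferentiated minus beta) and 0.38 (beta minus delta) after scaling. Atg4a was 1.73 and 1.95 RPKM in beta, 2.52 and 2.21 in transdifferentiated and 1.77 and 1.58 in delta libraries, not called as deposited. As shares, which scaling cannot change, Atg4d held 56.8% and 49.2% of Atg4 RPKM in beta, 37.7% and 34.9% in transdifferentiated and 36.8% and 34.9% in delta libraries, and Atg4c 15.3% and 19.8%, 29.3% and 29.8%, and 28.9% and 28.8%. Without 1 library, the beta minus delta call of Atg4d held in all 6 fits. Its other call was lost without transdifferentiated replicate 2 (adjusted p = 0.0673). Atg4c lost its call against beta without transdifferentiated replicate 1 (0.0616), and that between beta and delta in each fit except the one without beta replicate 2 (0.0501 to 0.162).

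Sqstm1 (p62), which carries ubiquitinated cargo to the autophagosome, had the highest mean level of all members, 594 and 513 RPKM in beta, 354 and 323 in transdifferentiated and 267 and 276 in delta libraries. All 3 populations were apart, with beta highest: beta exceeded delta 2.04-fold in mean RPKM (a log2 difference of 1.02, SE 0.12, adjusted p = 0.00061), and transdifferentiated cells were below beta by a log2 difference of −0.71 (SE 0.12, adjusted p = 0.0036). Gabarap, an LC3 relative, was 267 and 239 RPKM in beta, 172 and 159 in transdifferentiated and 177 and 184 in delta libraries, lowest in transdifferentiated cells, which were below beta by a log2 difference of −0.61 (SE 0.11, adjusted p = 0.00469). Beta exceeded delta by a log2 difference of 0.49 (SE 0.11, adjusted p = 0.00927). Of these 4 calls, all held after scaling, and all but the last held in the 6 fits without 1 library. The last was lost without delta replicate 1 or 2 (adjusted p = 0.0786 and 0.0537). Map1lc3a, an LC3 copy, was 36.1 and 21.0 RPKM in beta, 18.6 and 20.6 in transdifferentiated and 24.1 and 26.8 in delta libraries: the male beta library, which also carried the most acinar transcripts, stood above the other 5, and the part of those transcripts was not tested. No comparison of it was called as deposited. Without that library the transdifferentiated minus beta difference was −0.10, and without the female beta library −0.85 (0.521 and 0.0038). Map1lc3b, whose protein is the usual marker of autophagosomes, ranged from 8.49 to 10.9 RPKM, with no call as deposited. After scaling both LC3 copies were called lower in transdifferentiated than in beta cells. All 4 genes of this group were then lower there (100%, against 26.1% of genes), and 3 were higher in beta than in delta cells (75%, against 27.8%). RNA levels of these genes do not measure autophagic flux.

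Transdifferentiated and delta cells differed in few members. Only Atp6v1e1 was higher and Ctsh and Ctsz lower, 1.92% and 3.85% of the 52, against 5.53% and 7.20% of all genes. The median difference was 0.04, against −0.03 over all genes. Together these were 5.77% of members, against 12.7% of genes. After scaling 1 was higher (Lamp2; 1.92%, against 5.94% of genes) and 1 lower (Ctsh; 1.92%, against 6.43%). Counting libraries without a test, both transdifferentiated libraries lay between beta and delta with beta highest for 8 members (15.4%, against 5.76% of genes): Atp6v0b, Atp6v0c, Atp6v0d1, Atp6v0e, Atp6v1b2, Atp6v1e1, Ctsb and Sqstm1. For 9 members they lay between with delta highest (17.3%, against 21.9% of genes), for 8 they lay above both groups (15.4%, against 16.0%) and for 6 below both (11.5%, against 5.90%). The 8 above both were Atg10, Atg4a, Atg4c, Atp6ap2, Atp6v1d, Becn1, Lamp2 and Ulk1, and the 6 below both Atg101, Atp6ap1, Ctsd, Ctsz, Gabarap and Map1lc3a. After scaling, 16 lay between with beta highest (30.8%, against 12.4% of genes) and 3, Atg12, Ctsh and Ctso, between with delta highest (5.77%, against 14.2%). All 6 members below both groups remained there and Atg13 and Tfe3 joined them, which gave 8 (15.4%, against 11.8% of genes). Of the 8 above both only Atg4c remained, joined by Rb1cc1, which gave 2 (3.85%, against 12.3% of genes).

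Other genes of the pathway were counted from lists of 51 lysosomal, 23 autophagy and 21 mTORC1-related genes tested. Equal numbers of lysosomal genes were called higher and lower between beta and delta cells as deposited (12 higher and 12 lower, each 23.5%, against 11.7% and 46.3% of all genes). After scaling 26 were higher and 3 lower (51% and 5.88%, against 27.8% and 29.7%). In beta against delta cells, the acid lipase Lipa (1.32, SE 0.20), the galactosidase Gla (1.06, SE 0.13), the sialidase Neu1 (0.85, SE 0.15) and the tetraspanin Cd63 (0.78, SE 0.11) were higher, and the ganglioside activator Gm2a (−0.98, SE 0.10) was lower, both as deposited and after scaling. Of the autophagy genes, 1 was higher and 8 lower in beta than in delta cells (4.35% and 34.8%), and after scaling 8 and 2 (34.8% and 8.70%). In transdifferentiated against beta cells 8 were higher (34.8%, against 42.5% of all genes) and none lower by limma (against 8.46%), with 1 lower at an unadjusted p under 0.05. After scaling 3 were higher and 6 lower (13% and 26.1%, against 27.8% and 26.1%). In the latter comparison the fusion protein Stx17 (0.93, SE 0.15) and the cargo receptor Tax1bp1 (0.88, SE 0.11) were higher both ways. Among genes that place mTORC1 on the lysosome, 2 were higher and 5 lower in beta than in delta cells (9.52% and 23.8%), and 9 and 4 after scaling (42.9% and 19%). Fnip1, partner of folliculin, was 8.27 and 9.80 RPKM in beta, 31.9 and 28.0 in transdifferentiated and 27.7 and 24.2 in delta libraries, and Rragb, a Rag GTPase, 14.6 and 19.0, 31.6 and 32.9, and 40.4 and 40.1 RPKM. Both were lower in beta than in delta cells (−1.43 and −1.22) and higher in transdifferentiated than in beta cells (1.63 and 0.91), also after scaling. Of the 51 lysosomal genes, 6 were higher and 9 lower in transdifferentiated than in beta cells (11.8% and 17.6%, against 42.5% and 8.46% of all genes). After scaling 1 was higher and 27 were lower (1.96% and 52.9%, against 27.8% and 26.1%). Cd63 (−0.65), the glycosidases Naglu (−0.63) and Hexa (−0.61), and Neu1 (−0.58) were lower in transdifferentiated than in beta cells. Against delta cells, Gla (0.70), the chloride transporter subunit Ostm1 (0.67) and Lamtor3 (0.48) were higher, and the protease Lgmn (−0.81), Gm2a (−0.78) and Tcirg1 (−0.55) lower.

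Members with the E-box core in the promoter window moved in both directions as deposited. Of the 13, 3 were higher and 3 lower in beta than in delta cells (after scaling 9 and none), where 11.7% and 46.3% of all genes were called as deposited and 27.8% and 29.7% after scaling. Of the 28 tested members with an entry but no match 6 were higher and 8 lower (after scaling 16 and 1). As deposited, Lamp1 and Atp6v0b, with 4 and 2 matches in the sequences above, were higher in beta than in delta cells. Also as deposited, Atg3 with 2 was lower, and Ctsd and Atp6v1a were not called. After scaling Lamp1 and Atp6v0b stayed higher, Atp6v1a was called higher and Atg3 lost its call (adjusted p = 0.531). Against beta cells, 1 of the 13 was higher and 4 lower in transdifferentiated cells (after scaling none and 9). Of the 28 without a match, 4 were higher and 6 lower (after scaling 1 and 14). Of all genes, 42.5% were higher and 8.46% lower as deposited, and 27.8% and 26.1% after scaling. Of the members with the largest differences, Sqstm1, Gabarap and Ctso had an entry without a match, and Ctsb, Ctsh and Rb1cc1 had no entry. Overlapping genes make some levels uncertain, since the strand setting of the counting is unknown here: besides Rb1cc1, exons of Ctsb (with Fdft1), Sqstm1 (with Mrnip), Atp6v1e1 (with Slc25a18), Atg4d (with Kri1), Lamp1 (with Grtp1), Atp6v0b (with Gm12841), Ctsl (with Gm47123 and the pseudogene Gm49230), Ctsz (with Nelfcd), Ctsa (with Neurl2 and Pltp), Atg14 (with Gm49004), Atp6v1h (with Rgs20) and Atp6v1g2 (with Nfkbil1) share bases with neighbours. So do exons of Atg2b (with Gskip), Atg9a (with Ankzf1 and Gm29253), Atg9b (with Nos3), Becn1 (with Cntd1), Map1lc3b (with Zcchc14) and Atp6v0a2 (with 4930404A12Rik). The untested Atp6v0a4, Atp6v1c2, Atp6v1e2, Ctsm and Ctsw also have overlapping neighbours. Ctsd overlaps Gm49369, Ctsl the pseudogene and Atg9a Gm29253 on the same strand, where no strand setting could part the reads. The same holds for Atp6v0a4 (with D630045J12Rik) and Ctsm (with Gm49352).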

How the data were processed

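Per the labels' protocols, sorted cells were collected in Trizol and libraries made with the TruSeq RNA sample prep kit, version 2. The deposited table holds RPKM made by the authors for 46959 symbols, and all its value columns belong to this series. The genome build GRCm38.p4 and the programs STAR 2.5, edgeR 3.14.0 and featureCounts are named, per the submitters' processing notes. Their settings, the strand setting and any correction of the RPKM for composition are not given in the sources used here. The 27 symbols turned into dates were left out. Exon lengths from GENCODE M21, matched to 44093 symbols, gave reads from RPKM: 83.3% to 86.4% of values under 50 reads were whole within 0.01 read. The denominators were 10.9 to 21.6 M reads, so 1 read of a gene of 1 kilobase was worth 0.0464 to 0.0917 RPKM. Lengths are those of a later annotation than the authors may have used, and the reads serve as a description only.

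The 13022 genes that reached 1 RPKM in 2 libraries or more were fitted on log2(RPKM + 1) by limma-trend (limma 3.58.1, R 4.3.3, 1 model for the 3 populations, 2-sided, Benjamini-Hochberg adjustment over all genes tested); a gene is called at an adjusted p under 0.05. Differences on this scale understate the change of low genes. The method was tested only on simulated data with few genes changed and noise drawn from the fit itself. No shift in composition was simulated, so that test cannot vouch for the calls given here. The alternatives were median-of-ratios scaling, no filter, a pseudocount of 0.1 RPKM, pool as a block, a fit on the 4 libraries compared, and leaving out each library; pool as a block together with scaling was chosen after seeing the data. The design text takes all populations from shared islets, so replicate numbers (male 1, female 2) pair the libraries. The deviations of same-numbered libraries from their group means correlated at 0.47 (beta and transdifferentiated), 0.24 (beta and delta) and 0.36 (transdifferentiated and delta) across genes; beside a result, the block is given only where it changed a call.

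Members, lists and tests were chosen with earlier results of these data known. Values in every library are given for the 3 members of highest mean in each role, for up to 6 members per direction and comparison called both as deposited and after scaling, and for members with gene copies; other members named with values were added for their role in the pathway. Other pathway genes are the up to 4 per direction and comparison called both ways.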

Additional observations from a re-analysis of the deposited data

How the results depend on the processing

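Scaling changed the balance of calls in the 2 comparisons with beta cells. Beta minus delta moved to 32 members higher and 4 lower (all genes 3623 and 3865), and transdifferentiated minus beta to 2 higher and 30 lower (all genes 3624 and 3395). Transdifferentiated minus delta then had 1 member lower, as without the filter. With pool as a replicate block as well as scaling, beta minus delta gave 32 and 5 members (3846 of all genes higher), and transdifferentiated minus beta 3 and 30 (3654 of all genes lower). As a block alone, pool added Ctsl to the members called lower against delta (3 in all) and to those called higher against beta, removed Ulk1 from beta minus delta, and changed no other call of a member. A fit on the 4 libraries compared gave 5 members higher and 8 lower against beta (all genes 4954 and 783), where Lamp1, Ctsd, Atp6v1g1 and Atp6v0e2 lost their lower calls (adjusted p = 0.0537 to 0.075) and Ulk1, Atg10 and Atg3 their higher ones (0.056 to 0.08). Against delta it gave 3 higher and 3 lower (all genes 856 and 1202). In beta minus delta Ctsz, Atg4c and Ulk1 lost their lower calls (0.0512 to 0.0701). Scaling turned the sign of 16 of 52 members in transdifferentiated minus beta, 10 in beta minus delta and 1 in transdifferentiated minus delta. Alone or with the block, it turned Atg4b and Atp6v1c1 to −0.36 and Atg3 to −0.0301 in transdifferentiated minus beta, and Atg4b, Atp6v1c1 and Atp6ap2 to 0.38, 0.41 and 0.32 in beta minus delta. The cause was not tested.

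Each library was left out in turn, with the lone library of its group assumed to vary like the others. In beta minus delta this gave 6 to 15 members higher and 6 to 12 lower (all genes 872 to 1500 and 4021 to 6309), in transdifferentiated minus beta 3 to 12 and 4 to 16 (all genes 3694 to 5962 and 426 to 1093), and in transdifferentiated minus delta 0 to 3 and 1 to 3 (all genes 273 to 878 and 229 to 1197). Where limma called 0 members higher than delta, 1 to 4 had an unadjusted p under 0.05. With 2 pools a group, sex, pool and library cannot be told apart, and depth limits members under 1 RPKM.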
